A study of Bos taurus with 2 samples.

Results

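Myosin light chains are small proteins that wrap around the neck of the myosin heavy chain. Each myosin head carries an essential light chain, which stiffens the neck, and a regulatory light chain, which can be phosphorylated and which tunes the speed and force of contraction. Mammals keep separate light chain genes for fast muscle, slow muscle and heart, embryonic muscle, smooth muscle and non-muscle cells, and a myoblast that differentiates adds the muscle forms to the non-muscle forms it already has. The 8 genes described here were MYL1, MYL2, MYL3, MYL4, MYL6, MYL6B, MYL9 and MYLPF, taken by name from a feature list of 21867 genes. All 8 had UMIs in these data, with totals that ran from 60 for MYL3 to 486378 for MYL6.

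The counts came from satellite cells, the resident muscle stem cells, isolated from the longissimus muscle of 1 Holstein bull calf aged 2 weeks and grown for 1 week in DMEM with fetal bovine serum. No genotype, treatment or time was varied, so the groups compared are the cell clusters that the study defined. Both libraries, called replicates 1 and 2, were drawn from the same cultured cells on the 10x Genomics platform. Each captured RNA molecule is tagged there with a random barcode, the unique molecular identifier or UMI, and a count is a number of such molecules. The libraries thus differ by which cells were drawn and by their preparation and sequencing, and nothing is known here of how calves differ.

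Replicate 1 held 9939 cells with a median of 14626 UMIs per cell, and replicate 2 held 9157 cells with a median of 15206. The library totals were 145631299 and 137818568 UMIs, and 27 cell barcodes occurred in both libraries. Clusters 15, 7, 13, 14 and 10 were shallow, with medians of 647, 1390, 1630, 2510 and 5400 UMIs per cell, and the other clusters had medians between 12900 and 23000. The study named clusters 3 and 12 as differentiating cells or myocytes, clusters 1 and 2 as myoblasts, clusters 4, 5 and 8 as satellite cells, clusters 7 and 9 as fibro-adipogenic cells, and left the rest without an identity. The level of a gene is given here as UMIs per 10000 UMIs of a cluster, as mean ± SD of the 2 libraries. MYOG, the transcription factor that starts terminal differentiation, had a level of 18.6 in cluster 12 and 6.68 in cluster 3, against at most 4 elsewhere. PDGFRA, which marks fibro-adipogenic progenitors, had a level of 1.58 in cluster 9 and 1.48 in cluster 7, against at most 0.502 elsewhere. PAX7, which defines satellite cells in muscle, was at or below 0.0119 in every cluster. The glial markers SOX10 and FOXD3 had 0 UMIs, and PTPRC, which defines leukocytes, had 1 UMI. With the leukocyte markers CD68 and LYZ added, the summed level was 0.18 ± 0.0454 in cluster 7 and at most 0.0386 in any other cluster.

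Of the 8 genes, MYL1, MYL4, MYL6B, MYL9 and MYLPF had their highest mean level in cluster 12. The highest mean was in cluster 15 for MYL2, cluster 14 for MYL3 and cluster 8 for MYL6. Those means of MYL2 and MYL3 rest on 19 and 6 UMIs. In cluster 12, the summed level of the 8 genes was 97.3 ± 1.69 (n = 2 libraries), where cluster 15 had 41.3 ± 0.22, cluster 3 had 34.3 ± 0.351 and cluster 14 had 32.9 ± 1.15. The other 11 clusters ran from 11.2 ± 0.896 in cluster 13 to 24.5 ± 1.04 in cluster 8. MYLPF alone made up 70.4% ± 1.24 of the UMIs of these 8 genes in cluster 12, 38.7% ± 2.21 in cluster 3 and 6.56% ± 0.538 in cluster 1. Other light chain genes, MYL12A and MYL12B among them, are not in these shares. Their summed level was 13.9 ± 0.329 in cluster 12, 11.1 ± 0.0693 in cluster 3 and 11.4 ± 0.326 in cluster 1. Within the 8 genes, MYL6 had the opposite order, with 16.9% ± 0.00723 in cluster 12, 49.9% ± 0.632 in cluster 3 and 81.0% ± 2.09 in cluster 1. Because the protocol counts the 3′ ends of molecules, levels of different genes were set side by side without a correction for length. Whether the annotated 3′ ends captured each gene equally well was not examined, which limits comparisons between genes.

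**Figure D1:**
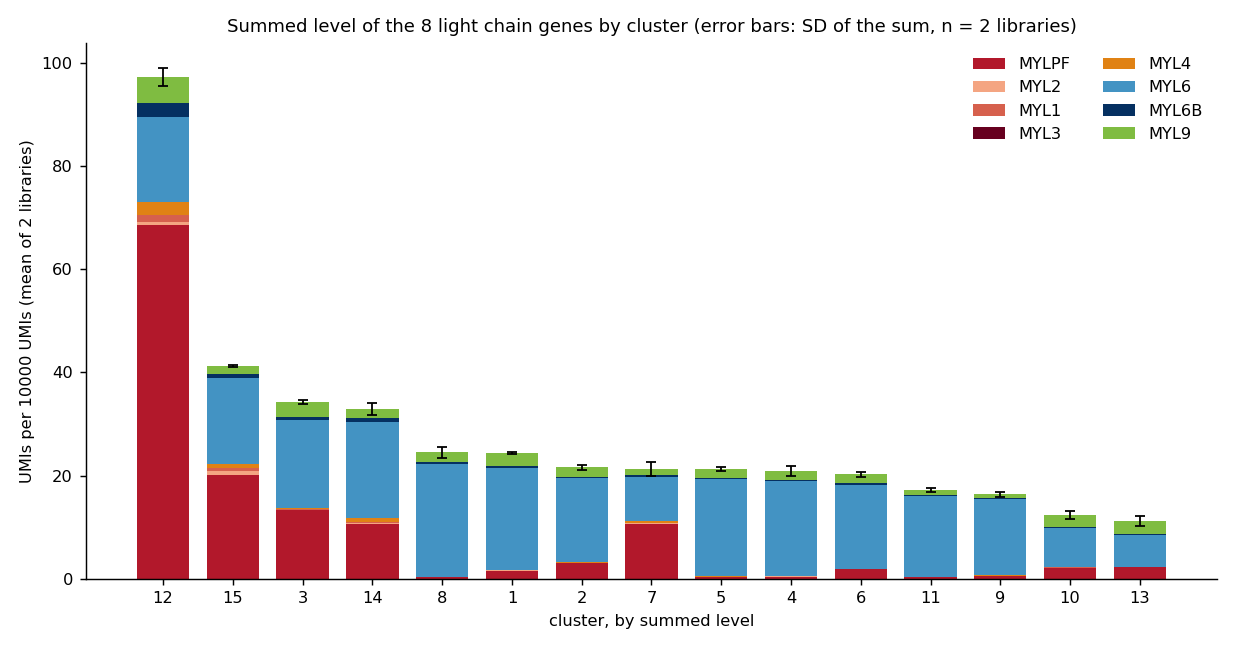
Stacked bars of the mean level (UMIs per 10000 UMIs, 2 libraries) of the 8 light chain genes in each of the 15 clusters, ordered by their sum, with error bars for the SD of the sum. The bar of cluster 12 reaches 97.3 and is mostly MYLPF, while MYL6 is the largest part of every bar but those of clusters 12, 15 and 7.

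MYLPF, the regulatory light chain of fast skeletal muscle, was the most abundant muscle form. Its level was 70.2 in replicate 1 and 66.8 in replicate 2 of cluster 12, 13.9 and 12.7 in cluster 3, and 1.5 and 1.71 in cluster 1. Both libraries of cluster 12 lay far above both libraries of cluster 3, which in turn lay far above those of cluster 1. Cluster 15 came second with 23.9 and 16.3, and clusters 7 (11.9 and 9.58) and 14 (12.4 and 8.92) came just under cluster 3, with the range of cluster 14 reaching into that of cluster 7. The lowest level was 0.345 ± 0.0273 in cluster 11, which made the highest level 198 times the lowest. Of the 166407 UMIs of MYLPF, cluster 12 held 51.1% and cluster 3 held 28.3%, although these clusters had 627 and 2034 of the 19096 cells.

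MYL1 encodes the essential light chains of fast skeletal muscle, of which it makes a longer and a shorter form from separate promoters that UMIs at the 3′ end cannot tell apart. It followed the same order at a much lower level, with 1.44 and 1.34 in the libraries of cluster 12, 0.303 and 0.261 in cluster 3, and 0.104 and 0.109 in cluster 1. MYL4, the essential light chain of embryonic muscle and the atrium, reached 2.22 and 2.73 in cluster 12, 0.161 and 0.198 in cluster 3, and 0.0256 and 0.0271 in cluster 1. MYL4 was thus above MYL1 in cluster 12 and below it in clusters 3 and 1, in both libraries. For both genes, the libraries of cluster 12 did not overlap those of cluster 15, which had the next highest mean. That mean rests on 14 UMIs for MYL1 and 17 for MYL4, of which 10 and 13 were in replicate 2. For MYL4, clusters 15 (0.420 and 1.05) and 14 (0.808 and 0.375) overlapped, with cluster 14 above cluster 15 in replicate 1. Both lay above cluster 3. Cluster 7, named by the study as fibro-adipogenic, also lay above both libraries of cluster 3, with 0.223 and 0.230 from 48 UMIs.

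The slow muscle and ventricular forms were rare and came from few cells. MYL2, their regulatory light chain, had 577 UMIs (level 0.938) in replicate 1 of cluster 12 and 210 UMIs (0.336) in replicate 2, which together were 77.1% of its 1021 UMIs. In no other cluster were more than 50 UMIs counted. The mean level in cluster 15, 0.766 ± 1.08, was nominally the highest, but its 19 UMIs all came from replicate 2, and 16 of them came from 1 cell. MYL3, the matching essential light chain, had 34 and 12 UMIs in the 2 libraries of cluster 12, 6 and 0 in cluster 14, and at most 3 in any other cluster. MYL3 was not found in cluster 3, where 0 of 2034 cells allows a share of cells with a UMI of up to 0.147%.

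The members known from non-muscle and smooth muscle cells were present in every cluster. MYL6, the common essential light chain of non-muscle and smooth muscle myosin, had the highest level in cluster 8 (21.4 and 22.4) and the lowest in cluster 13 (6.46 and 5.79), a range of 3.58 times. Clusters 7 and 10 also had low levels of MYL6, with 8.61 ± 0.115 and 7.55 ± 0.091, whereas the very shallow cluster 15 had 16.7 ± 3.10. MYL6B, an essential light chain of slow muscle and non-muscle cells, sided with the muscle forms. Its level was 2.63 and 3.00 in cluster 12, 0.528 and 0.582 in cluster 3 and 0.272 and 0.259 in cluster 1. MYL6 and MYL6B are neighbouring, related genes, and whether reads of one were counted for the other was not examined.

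MYL9, the regulatory light chain of smooth muscle, was also highest in cluster 12, with 4.36 and 5.61, against 2.54 and 3.20 in cluster 3 and 0.680 and 0.893 in cluster 9, its lowest. In the order of its levels, neighbouring clusters did not overlap at 2 steps, between clusters 12 and 3 and between clusters 5 and 7. The level of MYL9 was higher in replicate 2 in 15 of 15 clusters, with a median ratio of 1.29 between the libraries. Of the 12046 genes with at least 100 UMIs, 142 (1.18%) did the same. The summed level of 8 smooth muscle and pericyte markers was 7.93 ± 0.576 in cluster 12, within the range of 4.60 to 12.5 over all clusters, and ACTA2 supplied 7.57 of it. MYH11, the heavy chain that defines smooth muscle, had a level of 0.0153 in cluster 12 and was at or below that in each of the other clusters.

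Over the 14 steps between neighbours in the order of the clusters, the libraries did not overlap in 9 steps for MYLPF, 8 for MYL6, 7 for MYL1, 6 each for MYL4 and MYL6B, 2 each for MYL2 and MYL9, and 1 for MYL3. Over all genes with at least 100 UMIs, 26.9% of such steps had no overlap. By this measure, the order of MYL2, MYL3 and MYL9 was no better resolved than that of other genes. The measure does not pair clusters by library, so the ranges of MYL9 include its higher level in replicate 2. Clusters 3 and 1 thus overlapped, although cluster 3 was higher within each library (2.54 against 2.34, and 3.20 against 2.92). MYL1, MYL4, MYL6B, MYL9 and MYLPF had their highest mean in cluster 12.

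**Figure D2:**
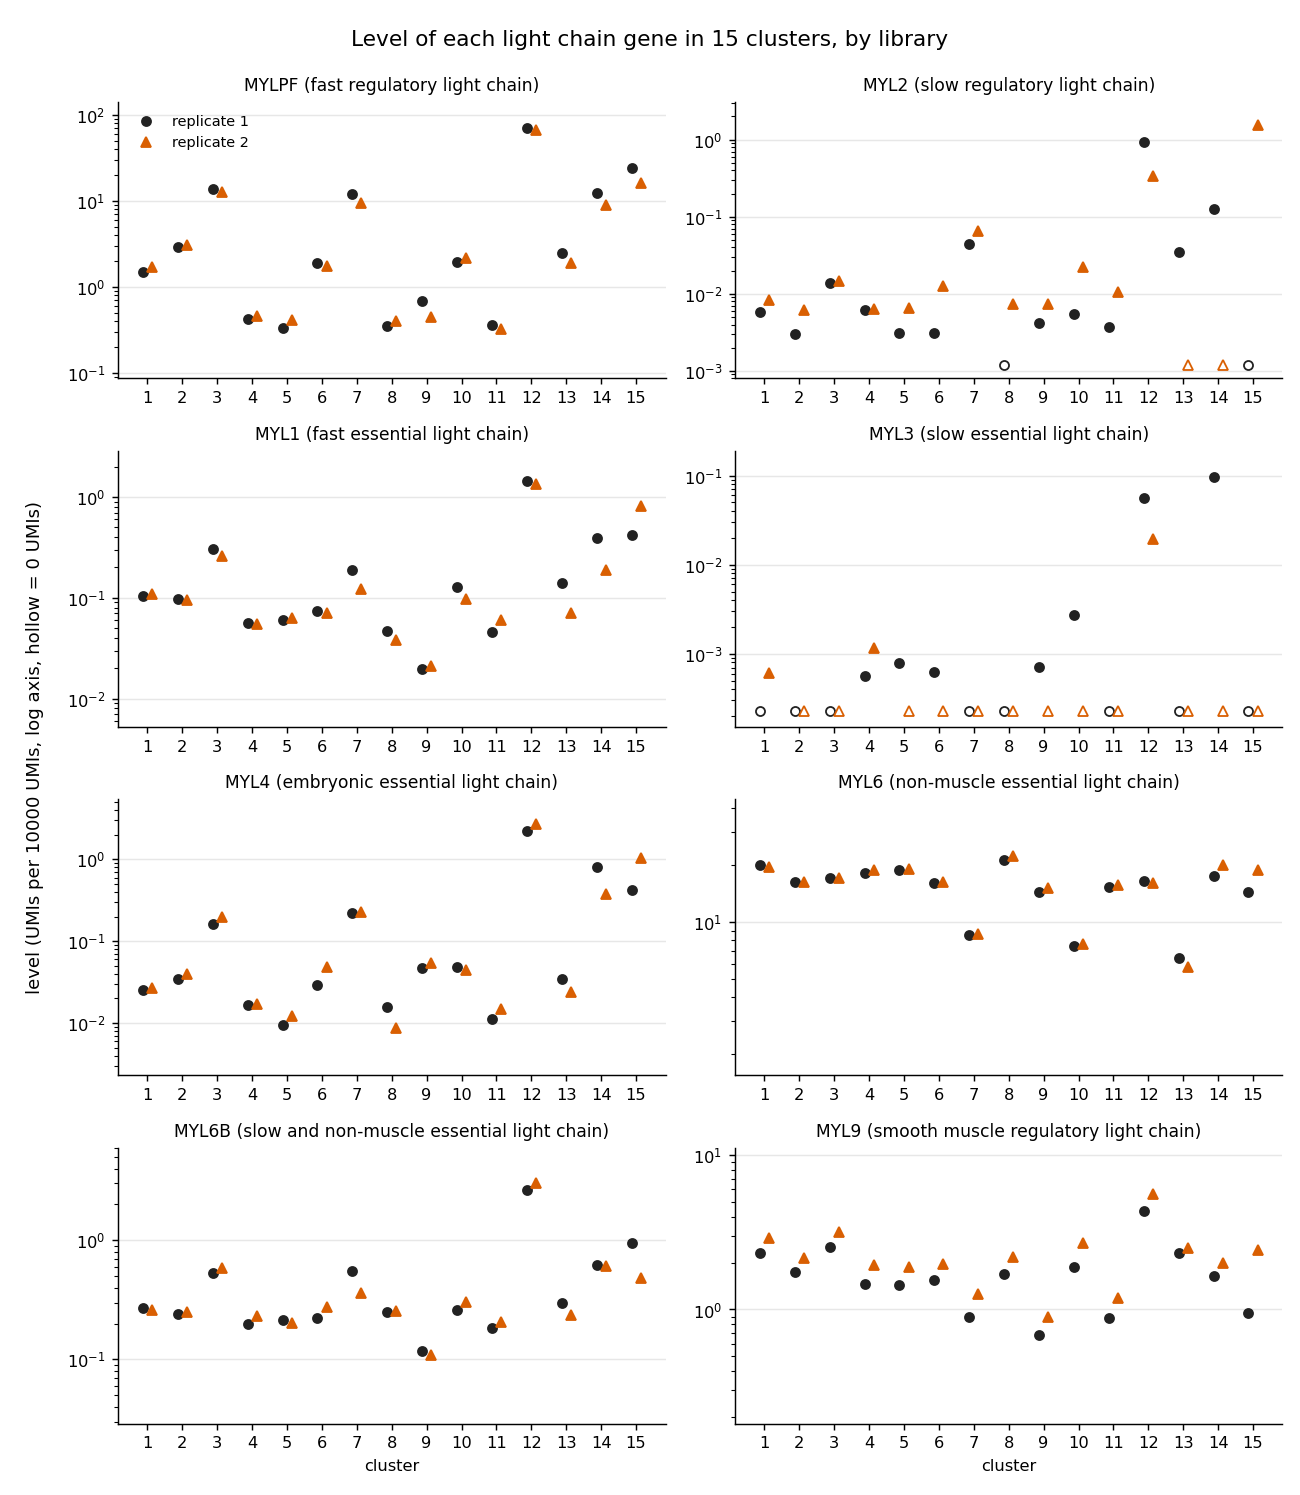
Level (UMIs per 10000 UMIs, log axis) of each light chain gene in the 15 clusters, with 1 point per library (circles for replicate 1, triangles for replicate 2) and hollow points at the foot of a panel for 0 UMIs. MYLPF, MYL1, MYL4 and MYL6B peak in cluster 12, the points of MYL6 stay between 5.79 and 22.4, MYL3 has many empty libraries, MYL2 has 1 empty library in each of clusters 8, 13, 14 and 15, and the triangles of MYL9 lie above the circles in all 15 clusters.

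Cluster 12 was compared with cluster 3 to describe the step from early differentiating cells to myocytes. UMIs were summed per cluster and library, and 2 sums were compared with 2 sums in the quasi-likelihood test of edgeR, with p-values adjusted over 10811 genes by Benjamini and Hochberg and a call at an adjusted p under 0.05. Of the 7 members with UMIs in both clusters, 6 were higher in cluster 12, where 18.2% of all genes were called higher and 33.8% were called in either direction. MYL3 was called too, but it had 0 UMIs in cluster 3 and passed the filter on low counts through cluster 12 alone, so it is left out of that count. The median log2 fold change was 2.45 over the 8 members, also with MYL3 set to a floor of 3 UMIs in cluster 3, and -0.02 over all genes. The clusters were built from the same counts, so these p-values are not independent evidence of a difference. They cover only the spread from the draw of cells, library preparation and sequencing.

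MYLPF, MYL1 and MYL6B differed by nearly the same factor in this comparison. The log2 fold change was 2.46 (SE 0.068) for MYLPF, 2.40 (SE 0.09) for MYL1 and 2.44 (SE 0.075) for MYL6B, with adjusted p-values from edgeR of 4.65e-07, 1.36e-06 and 5.97e-07. MYL4 had a larger value of 3.88 (SE 0.12, adjusted p = 5.96e-07 in edgeR's test). MYL9 had a smaller one of 0.89 (SE 0.13, adjusted p = 0.00125 in edgeR's test), the same in each library alone. MYL2 had 5.58 (SE 0.55, adjusted p = 0.000199 in edgeR's test), with 6.19 in replicate 1 and 4.59 in replicate 2. MYL3, with 46 UMIs in cluster 12 and 0 in cluster 3, was 43.7-fold higher with cluster 3 set to a floor of 3 UMIs. That floor takes UMIs as independent, but the 46 UMIs came from 16 cells, so the value is not a strict lower bound. MYL6 was the exception, with 0.04 (SE 0.048, adjusted p = 0.613 in edgeR's test), a sign that turned to -0.06 without TMM normalization and to -0.02 when the cells were clustered without the 8 genes.

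**Figure D3:**
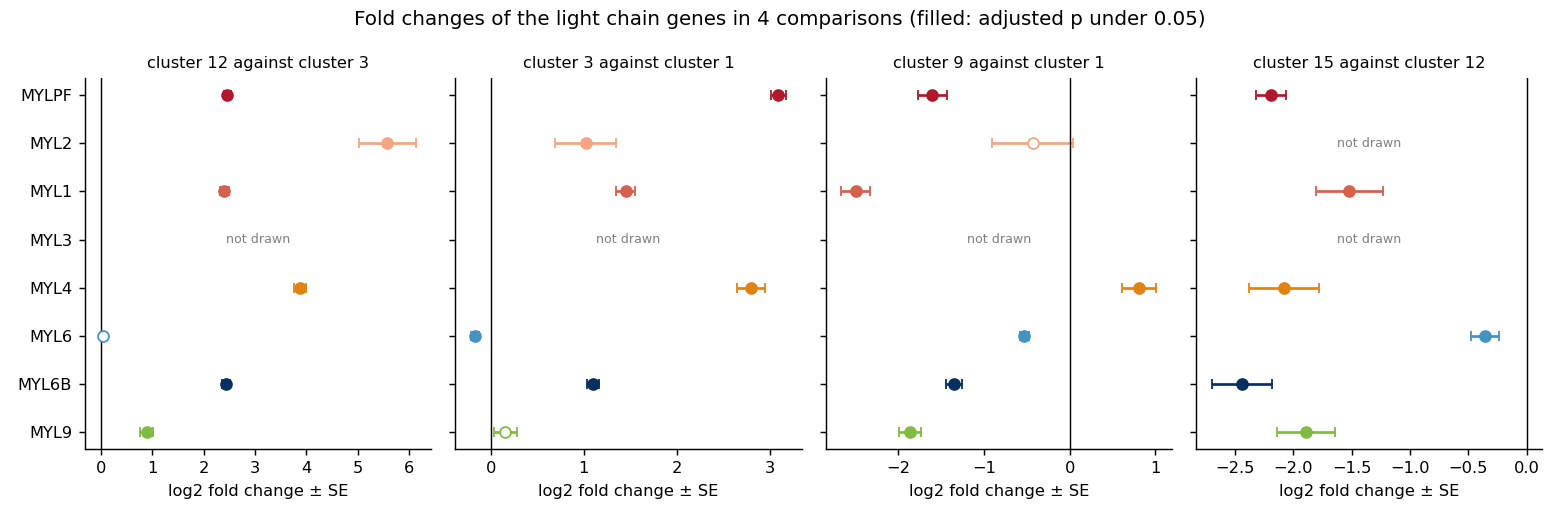
Log2 fold change from edgeR, with an SE derived from its test statistic, for the light chain genes in 4 comparisons of clusters, filled where the adjusted p was under 0.05. MYL6 lies near 0 in the first panel (0.04) while the other genes drawn lie between 0.89 and 5.58, and genes that were not tested or had a library with 0 UMIs are not drawn.

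The genes that work beside the light chains were described from lists chosen with earlier results of these data known. Among the thin filament and Z disc genes, 13 of 13 tested were higher in cluster 12, with a median log2 fold change of 2.81. ACTA1, skeletal actin, rose by 5.80 (SE 0.12) and TPM1, a tropomyosin, by 0.86 (SE 0.056). Of 9 heavy chain genes tested, 5 were higher and 2 lower. MYH3, the embryonic heavy chain, rose by 3.71 (SE 0.057), and MYH2, a fast heavy chain, had 71 and 30 UMIs in the libraries of cluster 12 and 0 and 3 in those of cluster 3. MYH9, the main non-muscle heavy chain, fell by 0.86 (SE 0.061), and MYH15 fell by 1.54 (SE 0.34), while MYH10, another non-muscle heavy chain, rose by 0.42 (SE 0.056). The 2 other light chain genes with enough UMIs, MYL12A and MYL12B, are closely related regulatory chains of non-muscle cells. MYL12A rose by 0.45 (SE 0.051) and MYL12B fell by 0.30 (SE 0.084). Among genes for kinases of the light chains and for the myosin phosphatase, DAPK3 rose by 0.47 (SE 0.07) and PPP1R12B by 0.86 (SE 0.25), while PPP1CB fell by 0.21 (SE 0.067) and ROCK1 by 0.20 (SE 0.065).

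Cluster 3 was compared with cluster 1 to describe the onset of differentiation, and this comparison shares cluster 3 with the previous one. Of 7 members tested, 5 were higher in cluster 3 (21.1% of 11362 genes were) and 1 was lower (19.1% of the genes were), where 40.2% of the genes were called in either direction. MYLPF had the largest log2 fold change, 3.09 (SE 0.082), followed by MYL4 with 2.80 (SE 0.15), MYL1 with 1.45 (SE 0.10) and MYL6B with 1.10 (SE 0.067), with adjusted p-values in edgeR's test from 2.96e-06 to 8.71e-05. Each of these 4 was higher in cluster 3 in both libraries. MYL2, with 50 UMIs in cluster 3 and 24 in cluster 1, had 1.02 (SE 0.33, adjusted p = 0.0448 in edgeR's test), a call that was lost under 6 alternatives (adjusted p from 0.0107 to 0.744 over all alternatives). MYL6 fell by 0.17 (SE 0.041, adjusted p = 0.0142 in edgeR's test), a call that was lost when 30 sums shared 1 fit (adjusted p = 0.0538) and when the cells were clustered without the members (adjusted p = 0.132, the highest over all alternatives). MYL9 was not called, with 0.16 (SE 0.12, adjusted p = 0.341 in edgeR's test), but was called with the library as a block (adjusted p = 1.67e-08, the lowest over the alternatives, whose highest was 0.65). MYL3 was not tested, having 0 UMIs in cluster 3 and 1 in cluster 1.

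In the same comparison, 11 of 13 thin filament and Z disc genes tested were higher and 0 lower, with a median of 1.63 against 0 over all genes. Among them, TNNI2, the inhibitory troponin of fast muscle, rose by 2.43 (SE 0.10) and ACTC1, cardiac actin, by 1.89 (SE 0.05). Of 6 heavy chain genes, MYH3 rose by 1.90 (SE 0.067) and MYH10 by 0.64 (SE 0.061). MYLK, the kinase of the smooth muscle regulatory light chains, fell by 2.00 (SE 0.19), while PPP1CB, PPP1R12B and ROCK1 rose by 0.19, 0.73 and 0.15. MYL12A and MYL12B were not called. Of the 6 myogenic markers, 3 were higher and 2 lower, with a median of -0.23. MYOG rose by 2.97 (SE 0.076), DES, muscle desmin, by 1.10 (SE 0.053) and MYOD1, a myogenic factor, by 0.33 (SE 0.052), whereas PAX7 fell by 2.20 (SE 0.47) and MYF5, the early myogenic factor, by 0.79 (SE 0.093). PAX3, a factor of muscle progenitors, had -1.01 (SE 0.40) and was not called. Of 6 smooth muscle and pericyte markers tested, 4 were lower and 0 higher, among which NOTCH3 fell by 2.30 (SE 0.09).

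Cluster 9, the fibro-adipogenic cells, was compared with the myoblasts of cluster 1, which also served in the previous comparison. Of 7 members tested, 5 were lower in cluster 9 (31.9% of 11549 genes were) and 1 was higher (31.3% of the genes were), where 63.2% of the genes were called in either direction. MYL1 fell by 2.49 (SE 0.17), MYL9 by 1.86 (SE 0.13), MYLPF by 1.60 (SE 0.17), MYL6B by 1.35 (SE 0.093) and MYL6 by 0.53 (SE 0.052), with adjusted p-values in edgeR's test from 4.97e-06 to 6.88e-05. MYL9, although it is known as a smooth muscle form, was thus lower in the fibro-adipogenic cells than in the myoblasts, in both libraries. Of 5 smooth muscle and pericyte markers tested, 3 were higher in cluster 9 (CSPG4, CNN1 and TAGLN) and 2 lower (NOTCH3 and ACTA2), with a median of 0.37. MYL2, with 15 UMIs in cluster 9 and 24 in cluster 1, was not called (adjusted p = 0.458 in edgeR's test).

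Barcodes marked as doublets made up 13% of the cells of cluster 9 and 4.45% of those of cluster 1. Without the doublets the level of MYLPF in cluster 9 went from 0.571 to 0.313 and that of MYL1 from 0.0205 to 0.00889, and their log2 fold changes against cluster 1 to -2.37 and -3.65. The 10 cells with the most MYLPF held 39.7% of its 1533 UMIs in cluster 9. MYL4 went from 0.0503 to 0.0502 without the doublets.

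MYL4 was the only member called higher in cluster 9. It had 66 UMIs in each library of cluster 9 (levels 0.0465 and 0.0542), against 44 and 45 in cluster 1 (0.0256 and 0.0271), and the libraries did not overlap. The log2 fold change was 0.81 (SE 0.20, adjusted p = 0.00782 in edgeR's test), and the call was lost with DESeq2 (0.84, adjusted p = 0.065) and when the cells were clustered without the 8 genes (0.16, adjusted p = 0.629, the highest over the alternatives, whose lowest was 0.00012). The UMIs came from 99 cells, of which 77 had 1. Per 100 UMIs of MYLPF, cluster 9 had 9.42 ± 3.9 UMIs of MYL4, where cluster 12 had 3.62 ± 0.645 and cluster 3 had 1.36 ± 0.29. Of the heavy chains tested, MYH6, the heavy chain of the atrium, was also higher in cluster 9, with 54 UMIs against 25 and a log2 fold change of 1.34 (SE 0.32, adjusted p = 0.00593 in edgeR's test). MYH9 and MYH10 rose by 0.42 (SE 0.056) and 0.17 (SE 0.065), and MYH3 fell by 1.59 (SE 0.13). Thin filament and Z disc genes were lower in 8 of 11 cases and higher in 0, with a median of -2.55 against -0.03 over all genes. MYL12A and MYL12B fell by 0.61 and 0.67. The extremes among all listed genes were PPARG, the adipogenic regulator, which rose by 4.44 (SE 0.20), and MYF5, which fell by 3.68 (SE 0.079).

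Cluster 15, whose cells are very shallow but carry sarcomere transcripts, was compared with cluster 12, which also served in the first comparison. Of 7 members tested, 6 were lower in cluster 15, where 11% of 8915 genes were called lower, 5.26% higher and 16.3% were called in either direction. MYL6B fell by 2.44 (SE 0.26), MYLPF by 2.19 (SE 0.13), MYL4 by 2.08 (SE 0.30), MYL9 by 1.89 (SE 0.25) and MYL1 by 1.52 (SE 0.29), with adjusted p-values in edgeR's test from 1.01e-09 to 0.00132. These values rest on 430 UMIs of MYLPF and 14 to 39 UMIs of each of the other 4 genes in cluster 15. In replicate 1 alone the log2 fold changes were -2.85 for MYL4, -2.65 for MYL9 and -2.22 for MYL1. In replicate 2 alone they were -1.74, -1.58 and -1.10. Leaving out replicate 2 thus moved each fold change, taken off the log scale, by more than 1.5 times. MYL6B had -1.92 and -2.99 in the 2 libraries. MYL6 fell by 0.36 (SE 0.12, adjusted p = 0.0394 in edgeR's test), a call that was lost without TMM normalization (0.04, adjusted p = 0.851, the highest over the alternatives, whose lowest was 6.5e-05), with DESeq2 (-0.32, adjusted p = 0.232) and without the filter (-0.44, adjusted p = 0.0726), and its plain levels were 16.7 ± 3.10 in cluster 15 and 16.4 ± 0.278 in cluster 12. MYL2 was not called, and 0 UMIs of MYL3 in cluster 15 carry no information, since the level of cluster 12 would give 0.813 UMIs there.

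The scaling mattered here for all genes. TMM normalization gave 469 genes higher and 981 lower in cluster 15, whereas library sizes alone gave 901 and 471, and the median log2 fold change of all genes went from -0.17 to 0.23. In the comparison of clusters 12 and 3, the corresponding counts were 1963 higher and 1687 lower with TMM and 1552 and 2527 without. The medians over the members of -1.89 and -1.49 in cluster 15 kept their sign under both scalings. Thin filament and Z disc genes were lower in 11 of 13 cases and higher in 0, with a median of -2.24, and MYH3 fell by 4.49 (SE 0.19). CALM2, a calmodulin, rose by 0.62 (SE 0.13).

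The members differed in how evenly the cells of a cluster carried them. In cluster 12, MYLPF was found in 626 of 627 cells, and the level per cell was 23.4 at the 10th percentile, 60.5 at the median and 123 at the 90th percentile. The 63 cells richest in a gene held 25.6% of the UMIs of MYLPF, 19% of MYL6 and 23.3% of MYL9, but 35.9% of MYL6B, 50% of MYL1, 50.2% of MYL4 and 96.1% of MYL2. The 10 richest cells held 62.5% of the 787 UMIs of MYL2 and 87% of the 46 UMIs of MYL3. The richest cell had 158 UMIs of MYL2 and was in replicate 1. In cluster 3, the cell level of MYLPF was 0 at the 10th percentile, 6.42 at the median and 34.7 at the 90th percentile, a wider spread relative to its median than in cluster 12.

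**Figure D4:**
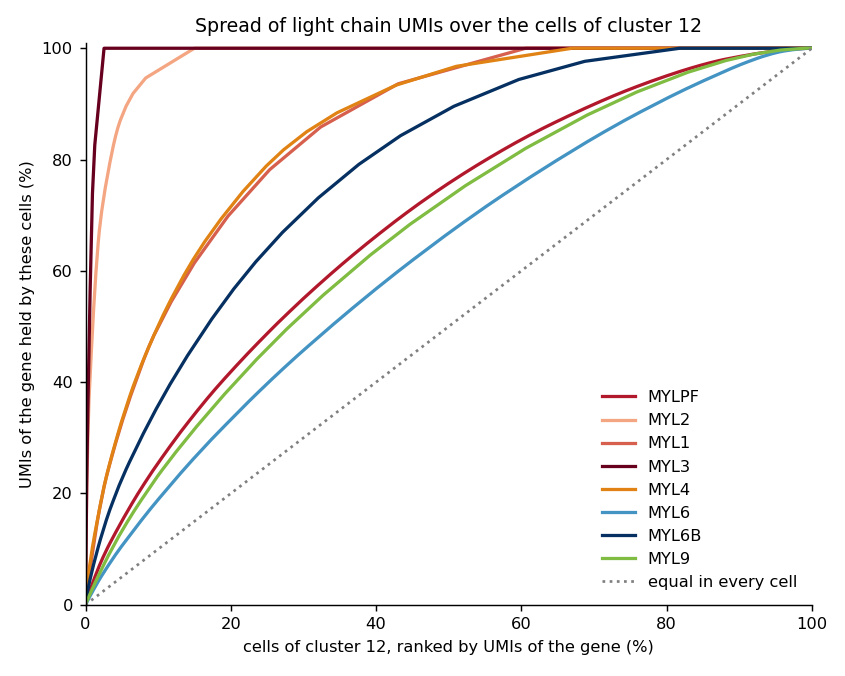
Cumulative share of the UMIs of each light chain gene in cluster 12 (both libraries, 627 cells), with the cells ranked by their UMIs of that gene, and a dotted line for equal UMIs in every cell. The curves of MYL6, MYL9 and MYLPF stay nearest the dotted line, MYL1 and MYL4 overlie each other, and those of MYL2 and MYL3 rise almost at once because 10 cells hold 62.5% and 87% of their UMIs.

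Cells of cluster 12 with at least 3 UMIs of MYL2 were set beside those with 0, which is a description, since MYL2 chose them. There were 26 such cells in replicate 1 and 15 in replicate 2, against 264 and 269 with 0. Their level of MYLPF was 114 and 128, against 64.1 and 61.4 in the cells without MYL2. MYL1 had 3.81 and 3.56 against 1.08 and 1.18, MYL4 had 5.02 and 9.85 against 1.91 and 2.09, and MYL6B had 5.71 and 5.52 against 2.21 and 2.69. MYL6 had 14.7 in both libraries, against 17.0 and 16.3. The median depth of the cells was similar, with 20500 and 20300 UMIs against 18900 and 19100. MYL3 was found in 5 of 26 and 1 of 15 of these cells, against 7 of 264 and 2 of 269. In both libraries the cells with at least 3 UMIs of MYL2 thus carried more MYLPF, MYL1, MYL4 and MYL6B and slightly less MYL6. For MYL3, the 1 cell in replicate 2 is too few to tell.

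Over the single cells of cluster 12, the rank correlation of levels between MYLPF and MYL1 was 0.385 in replicate 1 (315 cells) and 0.504 in replicate 2 (312 cells). With MYL4 it was 0.411 and 0.39, with MYL6B 0.417 and 0.379, with MYH3 0.453 and 0.435 and with ACTA1 0.493 and 0.519. MYLPF had no such relation with MYL6 (-0.0381 and 0.0541). With MYOG the values were -0.129 and -0.0376 in cluster 12 but 0.36 and 0.35 in cluster 3, over 1115 and 919 cells. The cells of a library share its preparation and differ in depth, so these values are a description.

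The share of cells with a UMI depended on depth, so each cell was also thinned to 1000 UMIs, and shallower cells were left out. MYLPF was found in 99.8% of the cells of cluster 12 (95% exact binomial interval 99.1% to 100%), and after thinning in 97.0% (95.3% to 98.2%). In cluster 3, these shares were 86.8% and 50.6%, and in cluster 1 they were 49.4% and 9.39%. In cluster 9, whose cell type should lack MYLPF, they were 48.2% (45.2% to 51.3%) at a median of 23000 UMIs and 3.89% (2.82% to 5.22%) after thinning. Clusters 4, 5, 8 and 11 had 3.68%, 3.60%, 3.22% and 2.84% after thinning, at or below cluster 9. That background included the doublets of cluster 9 described above, and the shares were not recomputed without doublets. Without them, the level of MYLPF was 0.313 in cluster 9 and 0.379, 0.357, 0.379 and 0.35 in clusters 4, 5, 8 and 11. The shares thus do not decide whether these 4 clusters lay above the background. Clusters 1, 2, 6 and 10, with 9.39%, 15.2%, 9.90% and 12.8%, lay above the interval of cluster 9. These shares include doublets too, which made up 15.3% of the cells of cluster 6. Without doublets, the level of MYLPF went from 1.83 to 1.15 in cluster 6. In clusters 1, 2 and 10 it went from 1.60, 3.02 and 2.09 to 1.48, 2.78 and 2.10. The intervals cover counting error only.

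In the shallow clusters 7, 14 and 15, a small part of the cells held most of the MYLPF. This was not particular to them. In the deeper clusters 1, 2 and 6, with doublets kept, the 250, 212 and 158 richest cells held 74%, 72.3% and 75.1% of its UMIs. In cluster 7, named by the study as fibro-adipogenic, 37.2% of the cells had a UMI of MYLPF, and 30.2% (27.3% to 33.1%) did after thinning, with 290 of 1298 cells left out. The 130 cells richest in MYLPF held 77.4% of its 2231 UMIs in cluster 7. In cluster 14, the 45 richest cells of 446 held 86.3% of 1448 UMIs and 1 cell had 112. In cluster 15, 118 of 317 cells had a UMI, and after thinning only 23 cells were left. Cluster 7 also had a level of MYH3 of 4.74 and of ACTA1 of 1.82, second to cluster 12 for MYH3.

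**Figure D5:**
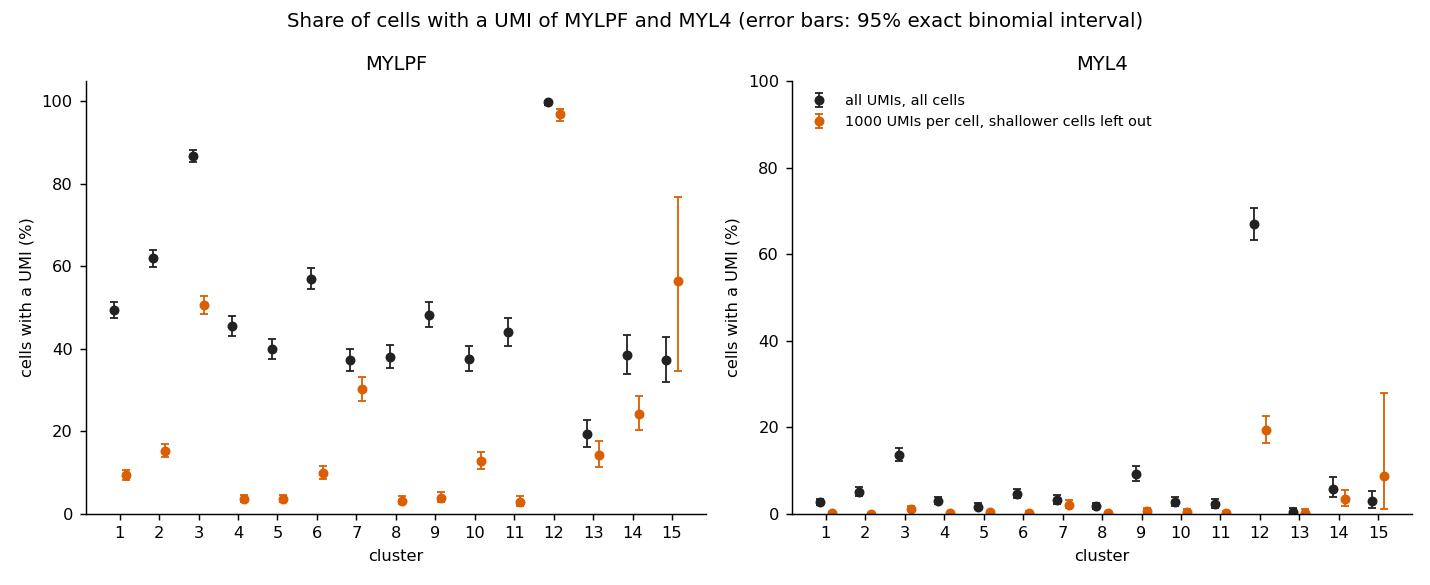
Percentage of cells of each cluster with at least 1 UMI of MYLPF (left) and of MYL4 (right), for all cells at full depth (black) and for cells thinned to 1000 UMIs (orange), with 95% exact binomial intervals. After thinning, MYLPF stays near 97.0% in cluster 12, drops to 50.6% in cluster 3 and to 3.89% in cluster 9, and MYL4 is highest in cluster 12 with 19.3%.

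The ratio of MYL1 to MYLPF differed between clusters. Per 100 UMIs of MYLPF, MYL1 had 2.03 ± 0.0275 UMIs in cluster 12 and 2.12 ± 0.0783 in cluster 3, and clusters 4, 5, 8 and 11 had 12.7 ± 0.866, 16.6 ± 1.94, 11.3 ± 2.61 and 15.5 ± 4.17. The ratio was thus higher in these last 4 clusters than in clusters 12 and 3, in both libraries. In cluster 9, where MYLPF was also low, it was 3.81 ± 1.39. How much of these UMIs was free RNA was not tested. At full depth, MYL1 was found in 8.82%, 7.92% and 8.40% of the cells of clusters 4, 5 and 11, with intervals that began at 7.54%, 6.66% and 6.62%, above the 3.80% (2.74% to 5.12%) of the deeper cluster 9, while the interval of cluster 8 (3.85% to 6.36%) overlapped that of cluster 9. After thinning, MYL1 was found in 0.548% to 0.710% of the cells of clusters 4, 5, 8 and 11 and in 0.0926% (0.00234% to 0.515%) of those of cluster 9. The thinned intervals overlapped, which does not decide whether the shares differed at 1000 UMIs per cell, and that difference was not tested.

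Some genes had nearly the same pattern over the 15 clusters as a member. Likeness was measured by Pearson's r of log2(UMIs per 10000 + 0.01) over the 15 clusters, among 9067 genes with at least 1000 UMIs. The values are a description, since all genes share the same libraries and depths. The closest to MYLPF were the troponin genes TNNC1 (0.98), TNNT2 (0.974) and TNNI2 (0.969). TNNT2 (0.972), HSPB2 (0.971), a small heat shock protein gene of muscle, and TNNI2 (0.966) were closest to MYL1, and PSTPIP1 (0.972), TNNI2 (0.967) and MYOZ2 (0.957), a Z disc gene, to MYL4. LMOD3 (0.964), a nucleator of thin filaments, TNNI2 (0.924) and ACTA1 (0.915) were closest to MYL2. MYL6B had MYOZ2 (0.959), TNNT2 (0.943) and TRIM55 (0.938), which encodes a sarcomeric ubiquitin ligase.

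The members of non-muscle cells had other companions. For MYL6 these were TXN (0.978), which encodes thioredoxin, DCTN3 (0.974), a subunit of dynactin, and LGALS1 (0.972), which encodes galectin-1. For MYL9 they were PLA2G12A (0.945), TMEM134 (0.945) and TMEM35B (0.931). Between members, r was 0.963 for MYL1 and MYL6B, 0.934 for MYLPF with MYL1 and also with MYL4, 0.523 for MYLPF and MYL9, and -0.137 for MYLPF and MYL6.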

How the data were processed

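The authors aligned reads to ARS-UCD1.2 and counted UMIs with Cell Ranger 3.0.2, then combined both libraries at equal mapped depth. The deposited counts are whole UMIs per gene and cell, without normalization beyond that equal depth. A deposited table gives the authors' cluster averages, which were used, and their fold changes and p-values, which were not. The averages convert to whole UMI sums (to within 0.000107) and fixed the cluster of all 19096 cells, with 0 of 252240 gene and cluster pairs differing. The library was read from the number that ends each barcode.

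UMI sums per cluster and library were compared with edgeR 4.0.16 (R 4.3.3) after TMM and filterByExpr, with DESeq2 1.42.0 as an alternative, and checked on simulated data. There, 200 genes were changed 3-fold. The test recovered 88.5% of them for clusters 12 and 3, 90.5% for 3 and 1, 95.5% for 9 and 1, but 30% for 15 and 12. It also called 9, 21, 20 and 0 unchanged genes. A missing call between clusters 15 and 12 thus says little. The simulated sums were not paired by library, and far fewer genes were changed than were called in the data. These shares need not hold for the data. Sums of 1 library are paired, with correlations of log2 library ratios of 0.396, 0.512, 0.518 and 0.18 in the 4 comparisons, and the fit had no block. Each SE was derived from edgeR's test, as the absolute log2 fold change divided by the square root of the F statistic. Scrublet (scanpy 1.11.5, expected rate 8%) set a threshold of 0.743 in replicate 1, which marked 0 cells, so that of replicate 2, 0.272, was used for both, which was decided once these thresholds were known. Together 1153 cells (6.04%) were marked and kept. Leiden clustering without the members (resolution 1.2) matched 12 of 15 clusters with 73% of their cells. Its method also differed from that of the study. No such clustering was run with the members kept, so what their removal changed was not tested. Library depths were 145631299 and 137818568 UMIs.

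The genes named are the members, the 3 genes most like each member with at least 100 UMIs, and genes at the extremes of the gene lists. Other list genes are named as examples chosen after their values were seen. The members and lists were chosen with earlier results of these data known. One result on a list gene is not reported here.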

Additional observations from a re-analysis of the deposited data

How the results depend on the processing

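Of the fold changes recomputed for single members, 253 kept their direction and their side of the threshold or moved by less than the spread, 12 lost the threshold, 1 passed it anew, 6 reversed and 3, all from leaving out replicate 2, moved by more than the spread, although MYL9 between clusters 12 and 3 read 0.89 with and without it. That spread came from the same 2 libraries, so leaving 1 out could hardly move a value beyond it. Leaving out cells under 2000 UMIs left every count of calls unchanged between clusters 12 and 3, 3 and 1, and 9 and 1. Unchanged values under these settings thus say little. The number of genes called went from 3650 to 2268 with DESeq2 between clusters 12 and 3, from 4562 to 2865 with DESeq2 and 2877 with cells clustered without the members between clusters 3 and 1, and from 1450 to 940 without a filter between clusters 15 and 12. The log2 fold change of MYL6 turned to -0.06 without TMM and -0.02 with the new clusters between clusters 12 and 3, and to 0.04 without TMM between clusters 15 and 12. That of MYL2 between clusters 15 and 12 was 0.04, and turned to -0.05 with DESeq2 and without a filter and to -0.18 with 30 sums in 1 fit. Its libraries disagreed in sign, with 1.83 in replicate 2 alone and a negative value in replicate 1, where cluster 15 had 0 UMIs of MYL2. The cause was not tested. In the fit that pairs sums by library (replicate block), 7, 7, 6 and 6 members were called. MYL9 between clusters 3 and 1 (adjusted p = 1.67e-08 in edgeR's test) was the only member whose call changed. The first count includes MYL3, which had 0 UMIs in cluster 3. In that fit 4972 of 10811, 6275 of 11362, 8263 of 11549 and 1474 of 8915 genes were called. Without the block these were 3650, 4562, 7301 and 1450. Without replicate 1 or replicate 2, 6 members had their highest level in cluster 12, against 5 with both, and no test was possible with 1 sum against 1. Thinning to 500 UMIs found MYLPF in 87.7% of the cells of cluster 12, against 97.0% at 1000. Cluster 15 gave no value with the new clusters, which did not match it, nor with cells under 2000 UMIs left out.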
